A study of Mus musculus with 3 samples.

Results

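A set of 10 genes of insulin, cyclic AMP and growth signalling was followed through blood progenitors of mouse embryos that were homozygous or hemizygous for a DNMT3B7 transgene or wild type. They are Insr, Irs2, Gsk3b, Rps6kb2, Map2k7, Cblb, Adcy3, Adcy9, Rasa3 and Sipa1, 10 of the 38205 gene identifiers listed. They were chosen by name with values of these same libraries already known, so their levels and ratios are a description. The cells were LSK cells, that is cells sorted as lineage-negative and positive for Sca1 and c-Kit, from fetal liver of C57Bl/6 embryos at E14.5. One library came from homozygous DNMT3B7 transgenic embryos, 1 from hemizygous DNMT3B7 transgenic embryos and 1 from wild-type (WT) embryos. DNMT3B7 is a shortened DNMT3B, one of the enzymes that add DNA methylation, and the sources used here do not give its promoter. Cells of 4 to 5 embryos of a genotype went into each total RNA preparation, so there is no replicate, no test and no p-value, and each difference is one between libraries.

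Insulin and related growth factors act through receptor tyrosine kinases. Insr, the insulin receptor, phosphorylates docking proteins such as Irs2, which recruit PI3-kinase and so switch on AKT and the mTOR pathway. AKT restrains the kinase Gsk3b, and mTOR activates S6 kinases such as the product of Rps6kb2. Adenylyl cyclases such as Adcy3 and Adcy9 make cyclic AMP, the messenger of many hormones, which activates protein kinase A. Signals end through GTPase-activating proteins, which switch off Ras and Rap1, and through ubiquitin ligases of the Cbl family. In blood progenitors the PI3-kinase and Ras routes carry growth and survival signals of cytokine receptors.

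The deposited values were FPKM, which by definition count fragments per transcript length and per library size, so that genes can be compared with each other. As FPKM times transcript length, 1 fragment stood for 1103300 in the homozygous, 998700 in the hemizygous and 1053600 in the WT library. These figures were not in inverse proportion to the depths estimated below, so the values were not scaled by those depths. The FPKM were divided here by 1 common factor of 4245 and are called levels below. Levels were read only from the start of some chromosomes up to a fitted break, since most genes that every cell uses were listed low or at 0 elsewhere. On chromosome 16 the break came after 503 of the 536 genes fitted, and that chromosome held 826 of the readable genes. The submitters' processing notes name build mm9, and whether the annotation behind the values was of that build was not tested, which limits what a 0, and a level before a break, stand for. Of such constitutive genes 22 of 24 were high, at a mean of 200000 FPKM or more, before the fitted breaks and 14 of 422 outside them. Of those 422, 195 were at 0 in all libraries. The comparisons therefore cover 1454 genes before the breaks, of which 970 reached a level of 1 in a library. All 10 signalling genes were among them, with 4 on chromosome 8, 3 on chromosome 16, 2 on chromosome 19 and 1 on chromosome 12. Kit and Ly6a, which encode the sorted c-Kit and Sca1 proteins, lay outside, so the gate was not checked on them. With the median transcript length the low values imply a depth of about 2310000 fragments in the homozygous, 3010000 in the hemizygous and 3020000 in the WT library. With the longest transcript the estimate was 4810000 in the homozygous, 5930000 in the hemizygous and 5680000 in the WT library. Small RNA genes were not counted in either estimate. The mitochondrial mRNAs took 64.9% of the summed level of the genes compared in the homozygous, 72.1% in the hemizygous and 74.95% in the WT library.

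All 10 genes had a measurable level in every library. Sipa1 and Rasa3 stood highest, with mean levels of 336 and 335, followed by Rps6kb2 at 301 and Map2k7 at 217. Gsk3b and Insr were near the middle, at 76.4 and 67.2. Cblb at 37.4, Adcy3 at 28.7, Irs2 at 13.2 and Adcy9 at 7.60 made up the lower part. In this order the ranges over the 3 libraries overlapped between Sipa1 and Rasa3, Rasa3 and Rps6kb2, Rps6kb2 and Map2k7, and Gsk3b and Insr. They did not overlap between the other neighbours. In the WT library 85.7% of the 928 genes at a level of 1 or more lay below Rps6kb2, the highest of the 10 there, and 18.9% lay below Adcy9, the lowest.

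**Figure D1:**
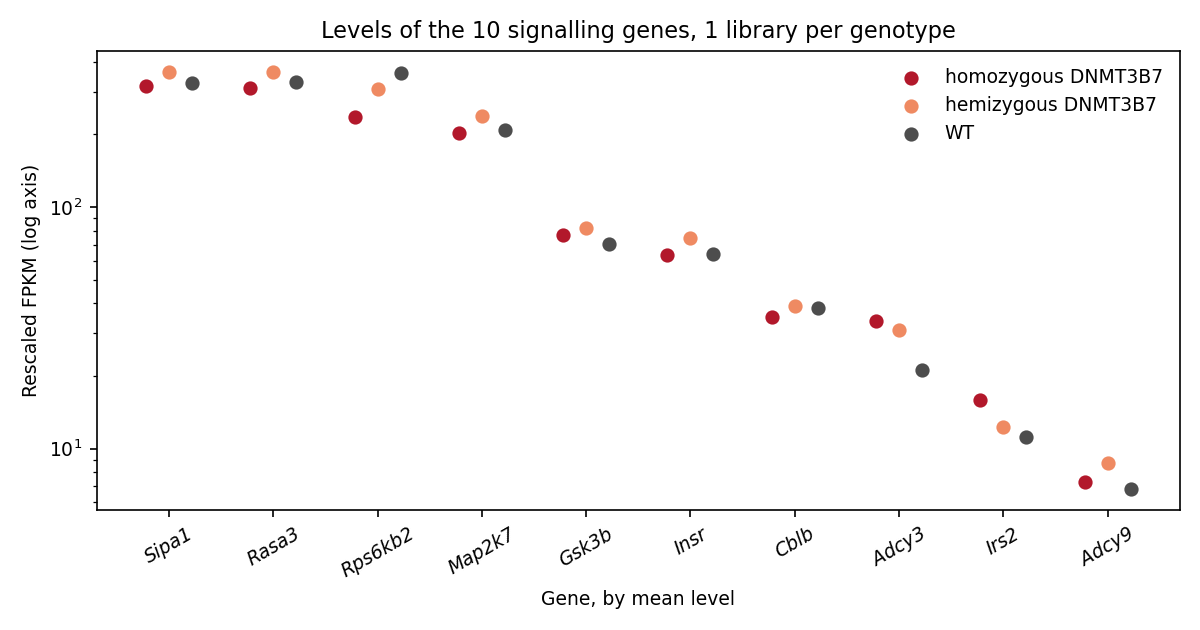
Rescaled FPKM (log axis) of each gene in the homozygous, hemizygous and WT library, with 1 point per library and genes ordered by mean level. The points of most genes lie close together. Rps6kb2 is at 236 in the homozygous and 358 in the WT library, and Adcy3 at 33.9 in the homozygous and 21.1 in the WT library.

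None of the 10 differed 2-fold between any pair of libraries, taken as a log2 ratio of level + 1 of at least 1 in size. Over all genes compared, 4.4% of 955 passed that size for homozygous versus WT, 2.73% of 954 for hemizygous versus WT and 4.57% of 962 for homozygous versus hemizygous. At 1.5-fold, 2 of the 10 passed for homozygous versus WT, Adcy3 as higher and Rps6kb2 as lower, against 12.5% of all genes (5.13% higher and 7.33% lower). None passed 1.5-fold for hemizygous versus WT (7.97% of all genes) or for homozygous versus hemizygous (11.4%). The median log2 ratio of the 10 was -0.03 for homozygous versus WT, where that of all genes was -0.04. It was 0.17 for hemizygous versus WT (all genes 0.02) and -0.21 for homozygous versus hemizygous (all genes -0.06). The comparisons share libraries, so they are not separate evidence.

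**Figure D2:**
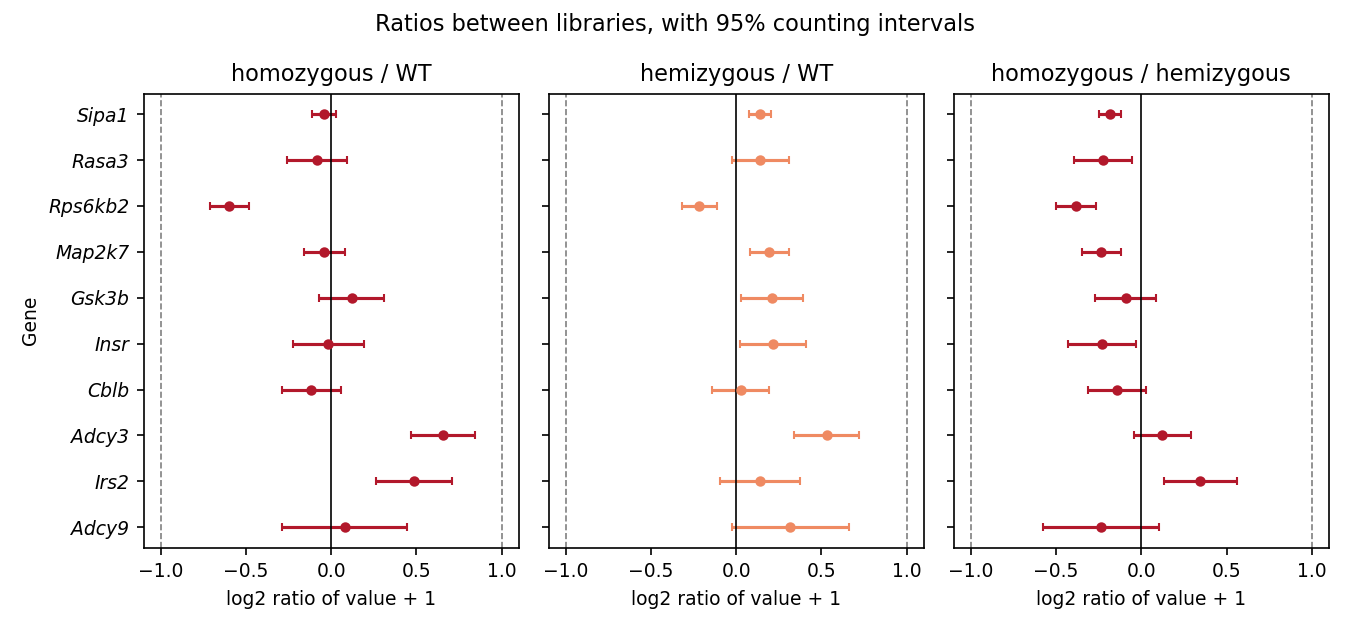
Log2 ratio of level + 1 for each gene in the 3 comparisons (x axis), with bars for the 95% counting interval and dashed lines at the 2-fold size. All points lie inside the dashed lines, with Rps6kb2 at -0.60 and Adcy3 at 0.66 farthest from 0 in homozygous versus WT.

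Of the receptor and its docking protein, Irs2 differed between the libraries and Insr showed little difference between the homozygous and the WT library. Insr (ENSMUSG00000005534, chromosome 8) had a level of 63.2 in the homozygous, 74.4 in the hemizygous and 64.0 in the WT library. The hemizygous library was the high one, with a log2 ratio to WT of 0.21 (95% counting interval 0.02 to 0.41). For homozygous versus WT the ratio was -0.02 (-0.22 to 0.19). Irs2 (ENSMUSG00000038894, chromosome 8), which relays insulin and IGF1 signals to PI3-kinase, had a level of 15.97 in the homozygous, 12.4 in the hemizygous and 11.1 in the WT library. The homozygous library was thus the high one for Irs2, at 0.49 (0.26 to 0.71) against WT and 0.35 (0.13 to 0.56) against the hemizygous library. Among all genes compared, 15.3% had a homozygous to WT ratio at least that far from 0. The intervals rest on estimated fragments and cover counting error only, neither differences between embryos nor library making. In pooled cells a higher share of cells that make an RNA and more RNA per cell cannot be told apart.

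The next protein-coding gene compared after Irs2 on chromosome 8 was Col4a1, a basement membrane collagen gene and vessel wall marker. Its level took the same order of libraries as that of Irs2. Col4a1 stood at 45.2 in the homozygous, 31.7 in the hemizygous and 25.5 in the WT library, and its partner Col4a2 at 54.1 in the homozygous, 36.4 in the hemizygous and 27.1 in the WT library. The other 7 markers fixed for vessel wall and stroma lay outside the segments, so 2 of 9 were readable, with a summed level of 99.3 in the homozygous, 68.1 in the hemizygous and 52.6 in the WT library. The protein-coding gene compared before Irs2 was Tnfsf13b, a cytokine gene, which took another order. Tnfsf13b was at 1.51 in the homozygous, 1.13 in the hemizygous and 1.87 in the WT library, a ratio of -0.19 for homozygous versus WT. Whether vessel wall cells have a part in the levels of Irs2 was not tested.

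The 3 kinases gave different pictures. Gsk3b (ENSMUSG00000022812, chromosome 16), which phosphorylates glycogen synthase and beta-catenin, had a level of 76.7 in the homozygous, 81.9 in the hemizygous and 70.6 in the WT library. Its ratio was 0.12 (-0.07 to 0.31) for homozygous versus WT and 0.21 (0.03 to 0.39) for hemizygous versus WT. Map2k7 (ENSMUSG00000002948, chromosome 8), the kinase that activates JNK, had a level of 203 in the homozygous, 239 in the hemizygous and 209 in the WT library. It was close in the homozygous and the WT library, at -0.04 (-0.16 to 0.08), and higher in the hemizygous library, at 0.19 (0.08 to 0.31). Exons of Map2k7 overlap those of Gm49320 on the same strand, and 32.8% of the 50-base stretches of its transcripts occur in those of Gm49320. Gm49320 was not listed in these data, and how many of the reads given to Map2k7 came from it was not tested.

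Rps6kb2 (ENSMUSG00000024830, chromosome 19), the S6 kinase S6K2 downstream of mTOR, was the one gene of the 10 that was lower in both transgenic libraries. It had a level of 236 in the homozygous, 308 in the hemizygous and 358 in the WT library. The log2 ratio to WT was -0.60 (-0.71 to -0.48) in the homozygous and -0.22 (-0.32 to -0.11) in the hemizygous library, and it was -0.38 (-0.50 to -0.26) between the transgenic libraries. Among all genes compared, 12.04% lay at least as far from 0 for homozygous versus WT. Exons of Rps6kb2 overlap those of Ptprcap and Coro1b on the opposite strand, and 19.5% of the 50-base stretches of its transcripts occur in those of Ptprcap. The strand setting is not given in the sources used here, so reads from the overlap cannot be told apart. Ptprcap was more abundant, at 1113 in the homozygous, 1110 in the hemizygous and 1185 in the WT library, and Coro1b stood at 1086 in the homozygous, 1308 in the hemizygous and 1070 in the WT library. For homozygous versus WT the ratio of Ptprcap was -0.09 and that of Coro1b 0.02.

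Cblb (ENSMUSG00000022637, chromosome 16), a ubiquitin ligase that limits signalling from tyrosine kinase receptors, varied least of the 10. Its level was 35.2 in the homozygous, 38.9 in the hemizygous and 38.2 in the WT library, and the highest was 1.11 times the lowest. The counting intervals of its 3 ratios included 0 with the median transcript length, with -0.12 (-0.29 to 0.06) for homozygous versus WT. With its longest transcript the interval for homozygous versus hemizygous excluded 0 (-0.27 to -0.01).

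Of the adenylyl cyclases, Adcy3 (ENSMUSG00000020654, chromosome 12) had the largest ratio among the 10. Its level was 33.9 in the homozygous, 31.0 in the hemizygous and 21.1 in the WT library. Both transgenic libraries were thus above WT, at 0.66 (0.47 to 0.84) in the homozygous and 0.53 (0.34 to 0.72) in the hemizygous library, and differed from each other by 0.12 (-0.04 to 0.29). Of all genes compared, 10.9% lay at least as far from 0 for homozygous versus WT and 9.64% for hemizygous versus WT. Adcy9 (ENSMUSG00000005580, chromosome 16), a widely expressed cyclase, had a level of 7.25 in the homozygous, 8.73 in the hemizygous and 6.81 in the WT library. These rest on about 120 fragments in the homozygous, 160 in the hemizygous and 118 in the WT library, the fewest of the 10, and the intervals of its 3 ratios included 0.

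Adcy3 overlaps Cenpo, a centromere protein gene, on the opposite strand, and 18.6% of the stretches of its transcripts occur in those of Cenpo. Cenpo had a level of 182 in the homozygous, 185 in the hemizygous and 167 in the WT library, a ratio to WT of 0.12 in the homozygous and 0.15 in the hemizygous library. It was 5.37 times the level of Adcy3 in the homozygous, 5.98 times in the hemizygous and 7.90 times in the WT library. How many of the reads given to Adcy3 came from Cenpo was not tested.

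The DNA before the starts of Adcy3 and Irs2, the genes of the 10 that were highest in the homozygous library, and of Adcy9, the other cyclase, is shown because CpG dinucleotides are the sites that DNA methyltransferases modify. Methylation itself was not analysed here. RefSeq's promoter table for GRCm38.p6 held 8 of the 10 genes, Insr and Rps6kb2 not being among them. Bases just after the first listed start occur in an annotated transcript (GENCODE M21) of the gene for Adcy3 and Adcy9, but not for Irs2. The window of Irs2 may therefore not adjoin the start of its annotated transcript. The 250 bases before the first listed start are given 5′ to 3′ on the gene's strand, with each CpG in capitals.
Adcy3 (GRCm38.p6, chr12:4133147-4133396, plus strand): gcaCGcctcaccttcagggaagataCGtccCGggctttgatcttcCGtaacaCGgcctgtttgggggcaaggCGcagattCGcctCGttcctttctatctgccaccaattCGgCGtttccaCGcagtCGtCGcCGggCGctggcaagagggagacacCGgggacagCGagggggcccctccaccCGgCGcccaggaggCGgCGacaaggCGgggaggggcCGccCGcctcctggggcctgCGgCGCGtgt
Irs2 (GRCm38.p6, chr8:11008930-11009179, minus strand): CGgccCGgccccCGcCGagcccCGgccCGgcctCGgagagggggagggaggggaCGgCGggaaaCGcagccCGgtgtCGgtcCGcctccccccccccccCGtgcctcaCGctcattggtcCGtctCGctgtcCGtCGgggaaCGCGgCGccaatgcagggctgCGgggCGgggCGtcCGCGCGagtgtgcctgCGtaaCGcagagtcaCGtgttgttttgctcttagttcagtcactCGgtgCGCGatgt
Adcy9 (GRCm38.p6, chr16:4420499-4420748, minus strand): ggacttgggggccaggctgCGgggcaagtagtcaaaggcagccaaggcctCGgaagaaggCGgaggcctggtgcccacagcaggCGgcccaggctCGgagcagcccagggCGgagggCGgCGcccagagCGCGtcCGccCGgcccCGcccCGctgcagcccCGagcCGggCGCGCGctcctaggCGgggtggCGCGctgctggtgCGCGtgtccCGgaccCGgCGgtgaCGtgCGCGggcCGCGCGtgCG
Adcy3 held 27 CpG in this window, and Irs2 and Adcy9 held 34 each. Across the 8 genes the count ran from 10 in Sipa1 to 34. The median was 16 for the 568 genes compared that the table held, and 5 of the 8 lay above it. No window of the 8 genes held the cyclic AMP response element TGACGTCA on either strand, which 1.55% of all 32851 promoters held, and none held the FOXO site GTAAACA, which 3.17% held. The half-site TGACG, which is part of that element, occurred in Adcy9 alone, and in 17.8% of all promoters. Some of the 8 genes had more than 1 listed start, which gave 10 windows. The GC box GGGCGG occurred in 6 of the 10 windows and in 32.7% of all promoters. The CCAAT box occurred in 6 of the 10 windows and in 33.8% of all promoters. All promoters held a median of 6 CpG, against 16 for the genes compared, in which the share with these boxes was not counted.

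The GTPase-activating proteins had almost the same level as each other in every library. Rasa3 (ENSMUSG00000031453, chromosome 8), which switches off Ras and Rap1 and is needed for normal red cells and platelets in mice, had a level of 311 in the homozygous, 364 in the hemizygous and 330 in the WT library. Sipa1 (ENSMUSG00000056917, chromosome 19), a brake on Rap1, had a level of 318 in the homozygous, 362 in the hemizygous and 328 in the WT library. Both were highest in the hemizygous library. The hemizygous to WT ratio was 0.14 (-0.02 to 0.31) for Rasa3 and 0.14 (0.08 to 0.21) for Sipa1. For homozygous versus WT both intervals included 0, at -0.08 (-0.26 to 0.09) for Rasa3 and -0.04 (-0.11 to 0.03) for Sipa1. The interval of Rasa3 rests on its median transcript length, which is short, and with its longest transcript it was narrower (-0.14 to -0.03).

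Across the 10 genes the hemizygous library held the highest level for 7, the homozygous library for 2 (Irs2 and Adcy3) and the WT library for 1 (Rps6kb2). Over the 970 genes compared the hemizygous library was highest for 40.5%, the homozygous for 24.6% and the WT library for 34.8%. The differences behind this pattern were small. The highest level was at most 1.28 times the lowest for the 7 genes, against 1.52 for Rps6kb2, 1.44 for Irs2 and 1.60 for Adcy3. The order of the transgenic libraries also turned with the scaling described next, under which all 7 genes had homozygous to hemizygous ratios above 0, of 0.08 to 0.26. That scaling raised the median of all genes too. Less that median, the ratios of the 7 stayed below 0, from -0.03 for Gsk3b to -0.21 for Adcy9.

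How the libraries are scaled sets the sign of several of these ratios. Scaling each library to the same sum, mitochondrial mRNAs included, moved the median log2 ratio of all genes to 0.49 for homozygous versus WT, 0.22 for hemizygous versus WT and 0.29 for homozygous versus hemizygous. Adcy3 (1.20) and Irs2 (1.01) then passed the 2-fold size, Rps6kb2 stood at -0.04, and Insr, Map2k7, Cblb, Rasa3 and Sipa1 turned from below to above 0. Less the median of all genes, the ratios under this scaling were 0.71 for Adcy3, 0.52 for Irs2 and -0.53 for Rps6kb2, and as deposited 0.70 for Adcy3, 0.53 for Irs2 and -0.55 for Rps6kb2. Under the same scaling all genes split into 61 higher and 9 lower for homozygous versus WT, against 20 and 22 as deposited. With the sum taken over nuclear genes Adcy3 was at 0.73, Irs2 at 0.55 and Rps6kb2 at -0.53, close to the deposited ratios.

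**Figure D3:**
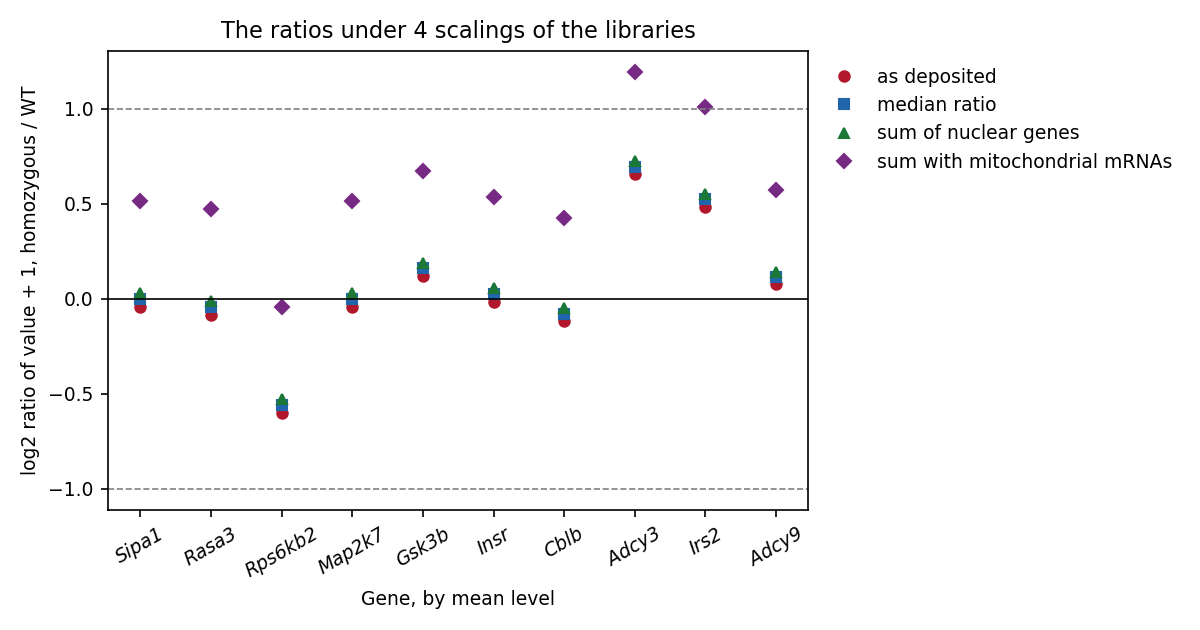
Log2 ratio of level + 1, homozygous versus WT (y axis), for each gene under 4 scalings of the libraries, with dashed lines at the 2-fold size. The sum that includes mitochondrial mRNAs lifts all 10 genes, Adcy3 to 1.20 and Irs2 to 1.01, while the other scalings lie close together.

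Ratios between genes of the same library do not depend on that scaling. The pairs were chosen after values were seen, so their differences are a description. The level of Irs2 was 0.253 of that of Insr in the homozygous, 0.166 in the hemizygous and 0.174 in the WT library, a log2 difference of 0.54 (95% counting interval 0.23 to 0.85) for homozygous versus WT. Adcy3 was 4.67 times Adcy9 in the homozygous, 3.55 times in the hemizygous and 3.11 times in the WT library, with a difference of 0.59 (0.18 to 1.00). Rps6kb2 was 1.16 times Map2k7 in the homozygous, 1.29 times in the hemizygous and 1.71 times in the WT library, with a difference of -0.56 (-0.73 to -0.39). These 3 pairs set the genes with the largest ratios of the 10 against genes with smaller ones. Gsk3b kept between 0.338 and 0.378 of the level of Map2k7, and Rasa3 between 0.978 and 1.01 of that of Sipa1. The counting interval of the difference for Rasa3 and Sipa1 was -0.23 to 0.15 for homozygous versus WT.

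**Figure D4:**
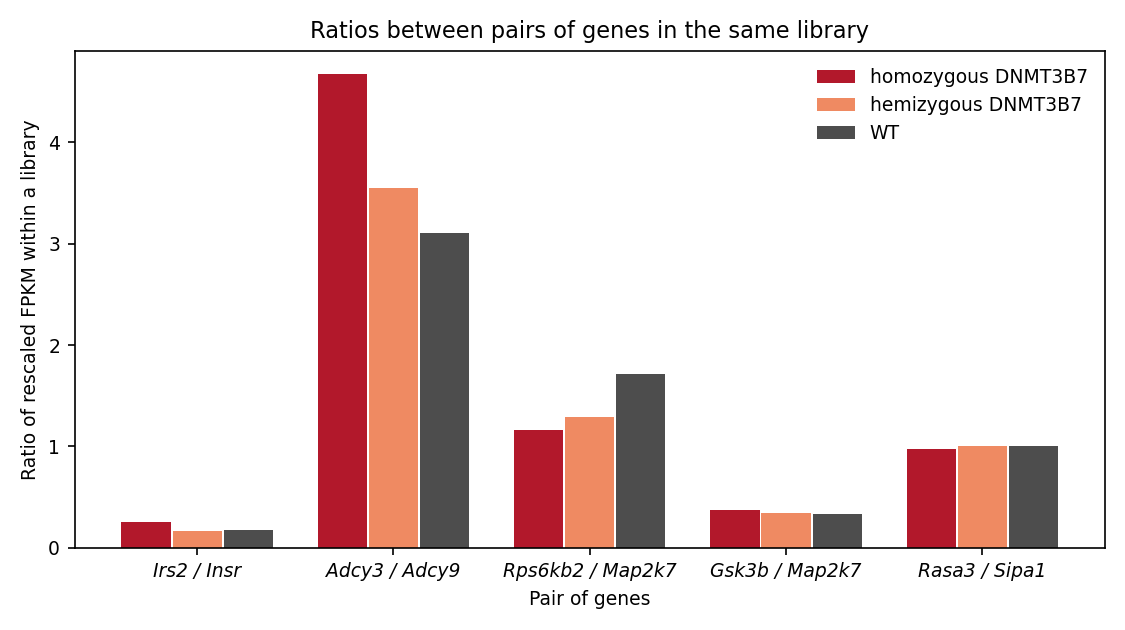
Ratio of rescaled FPKM between paired genes within the homozygous, hemizygous and WT library (bars, from 0). Adcy3 over Adcy9 is 4.67 in the homozygous and 3.11 in the WT library, and Rasa3 over Sipa1 is near 1 in all 3.

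Other genes of these pathways were readable in small number. Of 263 genes in 5 lists (insulin, PI3-kinase and mTOR; cyclic AMP and protein kinase A; Ras and Rap; JNK and p38; blood growth factor receptors), 15 besides the 10 lay before the breaks, and the last list had none. In homozygous versus WT 14 of them were compared, with 1 lower (2.3% of all genes), none higher at the 2-fold size and a median of 0.01. In hemizygous versus WT none of 15 passed, with a median of 0.07, and in homozygous versus hemizygous 1 of 15 was lower (2.91% of all genes), with a median of -0.17.

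The gene that passed was Popdc2, a cyclic AMP-binding membrane protein, at 8.31 in the homozygous, 22.7 in the hemizygous and 27.3 in the WT library. Its ratio was -1.61 ± 0.36 (counting SE) for homozygous versus WT and -1.35 ± 0.37 for homozygous versus hemizygous. Crebbp encodes the coactivator of the cyclic AMP response factor CREB and was the protein-coding gene compared just before Adcy9 on chromosome 16. Its level was 47.8 in the homozygous, 62.5 in the hemizygous and 43.2 in the WT library. Crebbp took the same order of libraries as Adcy9, with 0.52 ± 0.11 for hemizygous versus WT. Adrbk1, the receptor kinase GRK2 that desensitises hormone receptors, was the most abundant of these genes, at 2171 in the homozygous, 2486 in the hemizygous and 2015 in the WT library.

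In the Ras list Rasgrp2, an activator of Rap1 and so the counterpart of Sipa1, was at 1092 in the homozygous, 1346 in the hemizygous and 1339 in the WT library, a ratio of -0.29 ± 0.05 for homozygous versus WT. In the JNK list the upstream kinase gene Map4k2 was at 1009 in the homozygous, 1369 in the hemizygous and 1224 in the WT library. Map3k11, another kinase above JNK, was at 183 in the homozygous, 191 in the hemizygous and 183 in the WT library, its levels lying close together.

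Socs1, an inhibitor of cytokine and insulin signalling, was at 23.2 in the homozygous, 17.9 in the hemizygous and 20.2 in the WT library. Igf2bp2, which binds the mRNA of Igf2, was at 159.8 in the homozygous, 159 in the hemizygous and 143 in the WT library. Akap9, which anchors protein kinase A, differed little, at 119.97 in the homozygous, 119 in the hemizygous and 119 in the WT library. Crem, a transcription factor of cyclic AMP signalling, was at 41.7 in the homozygous, 47.0 in the hemizygous and 48.0 in the WT library. Pkia, an inhibitor of protein kinase A, was at 5.20 in the homozygous, 7.52 in the hemizygous and 7.10 in the WT library, on 8.63 to 13.8 fragments. Its ratio of -0.39 ± 0.64 for homozygous versus WT was smaller than its counting SE.

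Of the marker lists of other cells, only B lymphoid markers passed the 2-fold size. All 3 readable ones were lower for homozygous versus WT (2.3% of all genes) and 2 of the 3 for homozygous versus hemizygous (2.91%). The 3 readable B lymphoid markers of 7, Igll1, Vpreb1 and Vpreb2, summed to a level of 192 in the homozygous, 400 in the hemizygous and 517 in the WT library. No erythroid marker passed 2-fold or 1.5-fold in any comparison. At 1.5-fold the 2 readable vessel wall markers were higher for homozygous versus WT (5.13% of all genes), and 1 of 2 myeloid markers was lower (7.33%). For homozygous versus hemizygous 1 myeloid marker was lower and 1 hepatocyte marker higher at that size (11.4% of all genes in either direction). The myeloid marker was Mmp8 in both comparisons, on 13.8 to 34.4 fragments. Its ratio was -0.76 ± 0.47 (counting SE) for homozygous versus WT and -0.83 ± 0.46 for homozygous versus hemizygous. The hepatocyte marker was Kng1, at 0.69 ± 1.07, on 7.54 fragments in the homozygous and 2.38 in the hemizygous library. The 3 readable erythroid markers of 10 summed to 3208 in the homozygous, 3947 in the hemizygous and 3922 in the WT library, and the 2 myeloid markers of 10 to 35.8 in the homozygous, 39.7 in the hemizygous and 45.6 in the WT library. Of 4 readable hepatocyte markers of 12, Fetub and Hrg had 0 in each library, and the sum was 4.81 in the homozygous, 3.82 in the hemizygous and 4.27 in the WT library. No mast cell marker was readable, and of the gate and stem cell list only Runx1 was, at 132 in the homozygous, 153 in the hemizygous and 152 in the WT library. Their part in the ratios of the signalling genes was not tested.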

How the data were processed

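RNA sequencing was done on 3 pooled LSK libraries, grouped by the genotype label. The authors deposited FPKM per gene with a status, per the file headers. The submitters' processing notes list TopHat2, Bowtie2 and Cufflinks, with no version, and the mouse build mm9. Neither the annotation nor the strand setting is given in the sources used here. The 10 genes and the pathway and marker lists were chosen with earlier results of these data known.

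The highest row with status OK was taken per identifier. FPKM were divided by 4245.16, which brings the mean sum over genes other than small RNA genes to 1000000. Gene types, order and lengths came from GENCODE M21 (GRCm38), which held 36463 of 38205 identifiers. On each chromosome 1 break was placed by maximum likelihood where the proportion of coding genes averaging 200000 FPKM or more changed, and 10 segments were kept (log likelihood gain of at least 5, share of at least 25%), settled while looking at the values. A gene was compared at a level of at least 1 in either library, with a pseudocount of 1, which understates the change of low genes. Fragments were read from values that were whole multiples of 1 unit within 0.05 (68.4% to 71.1% of low values, 10% by chance), with the median transcript length less 200 bases. Genes of the pathway lists were named when a library reached a level of 5. One gene that met this rule is not reported here. The calculation was tried on simulated data with counting noise only and planted changes larger than the ratios of the 10 genes. It therefore does not cover changes as small as theirs, nor differences in scaling. Python 3.11.15, numpy 2.4.6 and pandas 2.3.3 were used. Alternatives covered scaling, pseudocount, minimum, size, rows, lengths and background.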

Additional observations from a re-analysis of the deposited data

How the results depend on the processing

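No paired analysis was possible because each genotype has 1 library. Of the alternatives run, those that brought members past the size rule were the sum scaling with mitochondrial mRNAs (2 members, Adcy3 and Irs2, for homozygous versus WT) and the 1.5-fold rule (2 members, Adcy3 and Rps6kb2). With the longest transcript, 5 counting intervals of members excluded 0 for homozygous versus WT (Gsk3b and Rasa3 besides Adcy3, Irs2 and Rps6kb2), against 3. For hemizygous versus WT 7 did so, against 6, and for homozygous versus hemizygous 8, against 6. The count over all genes compared moved from 42 for homozygous versus WT, 26 for hemizygous versus WT and 44 for homozygous versus hemizygous. In that order of comparisons it was 119, 76 and 110 at 1.5-fold, 10, 4 and 9 with a pseudocount of 5, and 22, 8 and 19 at a minimum level of 5. It was 980, 1128 and 1171 with all gene identifiers as background. With a pseudocount of 0.1 it was 43 for hemizygous versus WT and 74 for homozygous versus hemizygous, and under sum scaling 70 for homozygous versus WT. Settings chosen after seeing the data gave 24, 17 and 24 with breaks fitted at 400000, where Gsk3b and Cblb were no longer covered, and 24, 10 and 18 with protein-coding genes only. The cause was not tested beyond what each setting changes. Over all alternatives run, Adcy3 ranged from 0.57 to 1.20, Irs2 from 0.38 to 1.01 and Rps6kb2 from -0.60 to -0.04 for homozygous versus WT. Under sum scaling the split over all genes was 21 higher and 6 lower for hemizygous versus WT, against 17 and 9, and 33 and 15 for homozygous versus hemizygous, against 16 and 28. Insr, Gsk3b, Map2k7, Cblb, Adcy9, Rasa3 and Sipa1 turned above 0 in that last comparison. They stayed below the median of all genes there, which was 0.29. Insr and Map2k7 also turned above 0 for homozygous versus WT under median-ratio scaling (0.02 and 0.0007), and with Sipa1 under nuclear sum scaling. Depth limits Adcy9 most, since about 120 fragments leave a counting SE of 0.19.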
